A study of Homo sapiens with 18 samples.

Results

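The comparison described here is that of SKOV-3 cells overexpressing the phosphomimetic PEA-15DD mutant (SKOV-3-DD) with cells carrying the empty vector (SKOV-3-EV), both without cisplatin. It comprised 6 arrays of the 18 in the series, 3 per group, chosen by their labels for transfection and treatment. SKOV-3 is a human ovarian carcinoma cell line. All cells were transfected transiently with liposomes, with HA-tagged PEA-15DD in pcDNA3 or, for SKOV-3-EV, the plasmid with the HA tag alone. They stayed in culture for 24 h and then received either medium alone or 15 µM cisplatin for a further 24 h before RNA was extracted. The 6 arrays used here are those with medium alone, and the titles of the SKOV-3-EV arrays among them also carry the abbreviation cis, although their treatment label reads control with a concentration of 0. The remaining groups were SKOV-3-AA cells, which carried a form of PEA-15 without phosphorylatable regulatory serines, without and with cisplatin, and SKOV-3-DD and SKOV-3-EV cells with cisplatin. RNA came from whole cultures, so cells that took up the plasmid and cells that did not were measured together, and fewer cells with a transcript cannot be told apart from less of it per cell. No source states that the 3 arrays of a group came from separate cultures, and p-values here measure only the spread between arrays.

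PEA-15 is a small death effector domain protein that binds the MAP kinases ERK1/2 and holds them in the cytoplasm. Phosphorylation of both its regulatory serine residues releases ERK1/2 and turns PEA-15 towards the death receptor adaptor FADD, and in PEA-15DD these serines are replaced by aspartate, which mimics the phosphorylated form. Nuclear ERK1/2 phosphorylates transcription factors of the ELK family, which act with the serum response factor at promoters of immediate early genes such as EGR1. Among the genes that ERK1/2 activity raises are its own brakes, the Sprouty and SPRED adaptors and the DUSP phosphatases, so that transcripts of these families are widely used to read the activity of the pathway.

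The promoters shown here belong to EGR1, the named gene with the largest difference between the groups, and to a pair of ERK-responsive genes, DUSP1 and VGF, that share a motif but differed in opposite directions. Each is the RefSeq sequence of the 250 bases before the annotated start, read in the direction of transcription (GRCh38.p14), at chr5:138465229-138465478 on the plus strand for EGR1, chr5:172771196-172771445 on the minus strand for DUSP1 and chr7:101165570-101165819 on the minus strand for VGF. Capitals mark CArG boxes in EGR1, the binding motif of the serum response factor (CC, then 6 bases of A or T, then GG), and the cyclic AMP response element TGACGTCA in DUSP1 and VGF, each searched on both strands.
EGR1: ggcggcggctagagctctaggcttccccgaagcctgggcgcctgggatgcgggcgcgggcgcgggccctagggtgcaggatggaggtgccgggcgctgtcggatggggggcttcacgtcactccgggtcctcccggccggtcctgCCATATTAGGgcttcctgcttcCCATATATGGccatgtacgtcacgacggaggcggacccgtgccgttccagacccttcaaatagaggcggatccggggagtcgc
DUSP1: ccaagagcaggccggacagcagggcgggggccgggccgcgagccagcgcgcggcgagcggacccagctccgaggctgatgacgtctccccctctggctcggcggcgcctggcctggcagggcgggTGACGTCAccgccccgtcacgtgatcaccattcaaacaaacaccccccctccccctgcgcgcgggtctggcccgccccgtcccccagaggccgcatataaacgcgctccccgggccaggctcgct
VGF: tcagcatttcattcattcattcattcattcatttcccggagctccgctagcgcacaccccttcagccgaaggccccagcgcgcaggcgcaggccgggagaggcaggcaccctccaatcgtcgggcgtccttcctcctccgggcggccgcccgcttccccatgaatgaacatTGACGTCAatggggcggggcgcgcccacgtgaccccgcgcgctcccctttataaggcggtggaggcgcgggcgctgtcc
EGR1 held 2 CArG boxes, CCATATTAGG and CCATATATGG, that began 105 and 83 bases before the start. Of 27305 promoters of this length 312 (1.14%) held a CArG box, and of the 47 ERK-responsive genes with a promoter sequence 2 did, EGR1 and SRF. The element TGACGTCA stood in 482 of all promoters (1.77%) and in 6 of those 47, namely DUSP1, DUSP8, EPHA2, JUND, MAFF and VGF. These matches describe the letters of the windows only.

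The PEA15 probe set itself was examined first. Its log2 signal was 9.59, 10.48 and 12.21 in replicates 1, 2 and 3 of untreated SKOV-3-DD, 9.96, 9.80 and 10.01 in untreated SKOV-3-AA, and 10.31, 10.06 and 10.39 in untreated SKOV-3-EV arrays. Replicate 3 of SKOV-3-DD stood clearly above all SKOV-3-EV arrays, replicate 2 slightly above the highest of them, and the array labelled SKOV-3-DD replicate 1 lay below all of them. The mean difference of 0.51 on the log2 scale (SE 0.43) was within this spread (limma, unadjusted p = 0.251, adjusted p = 0.967), and it was 1.09 without replicate 1. Under cisplatin the signal was 10.53, 10.73 and 11.63 in SKOV-3-DD, 9.99, 10.22 and 10.42 in SKOV-3-AA, and 10.95, 11.07 and 11.51 in SKOV-3-EV arrays. Transfection with a PEA-15 plasmid was thus not visible as a shared increase of this probe set in either mutant, and whether its probes cover the sequence carried by the plasmid is stated in none of the sources used. The paper reports transfection as shown at the protein level, by Western blot for HA-tagged PEA-15. Arrays are named by their labels throughout, and values without SKOV-3-DD replicate 1 are given beside the gene groups described.

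**Figure D1:**
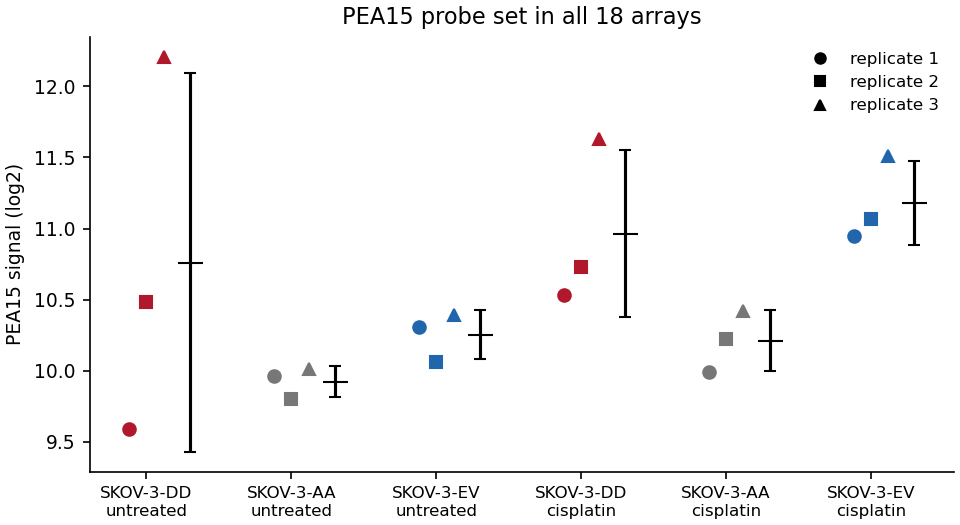
Log2 signal of the PEA15 probe set (vertical axis) in all 18 arrays, by transfection and treatment (horizontal axis). Symbols are replicates, and the horizontal tick with bars beside each group is its mean ± SD (n = 3). Among untreated arrays only SKOV-3-DD replicates 2 and 3, at 10.48 and 12.21, exceed the highest SKOV-3-EV array at 10.39, and replicate 1 is the lowest of all at 9.59.

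The 6 arrays were alike in overall signal, with medians from 6.53 to 6.60 in SKOV-3-DD and from 6.56 to 6.60 in SKOV-3-EV. The root mean square distance of an array to its group mean over all probe sets was 0.182 to 0.218 in SKOV-3-DD and 0.155 to 0.163 in SKOV-3-EV. Negative control features had medians from 3.57 to 3.69 in SKOV-3-DD and from 3.60 to 3.61 in SKOV-3-EV, and their 95th percentile lay between 6.30 and 6.95 in SKOV-3-DD and between 6.69 and 6.72 in SKOV-3-EV, so genes under about that level are described as dim. The carcinoma markers KRT8, KRT18, KRT19 and EPCAM and the Müllerian lineage factor PAX8 had signals from 11.07 to 16.08 in SKOV-3-DD and from 11.61 to 16.21 in SKOV-3-EV, whereas CDH1, MUC16, CLDN3 and CLDN4, markers of many other ovarian carcinomas, stayed between 3.80 and 5.03 in SKOV-3-DD and between 4.01 and 4.78 in SKOV-3-EV. Among the leukocyte markers PTPRC was high, at 12.06 to 12.34 in SKOV-3-DD and 11.71 to 12.26 in SKOV-3-EV, while the T and B cell markers CD3D and MS4A1 lay at 2.90 to 3.41 in SKOV-3-DD and 3.03 to 3.45 in SKOV-3-EV. The other members of the leukocyte list are not shown here. Summed over its 10 measured members, the log2 signal was 12.91 to 13.07 in SKOV-3-DD and 12.63 to 13.04 in SKOV-3-EV. That is well above PTPRC alone, so PTPRC was not the only bright member.

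Differences between SKOV-3-DD and SKOV-3-EV were small. At an unadjusted p under 0.05 in limma, 680 of 21448 probe sets (3.17%) had a higher and 493 (2.30%) a lower mean in SKOV-3-DD, so that 58.0% of them were higher, against 71.1% after each array was centred on its median and 48.6% after quantile normalization. Together they made up 5.47% of the probe sets, and none passed an adjusted p of 0.05 (Benjamini-Hochberg), whereas with limma's trend and robust options 1 did, EGR1 (adjusted p = 0.0465). The lowest adjusted p was 0.384, that of SPRY4. The thresholds of the study, 2-fold or more at an unadjusted p under 0.05, were passed by 7 probe sets (0.0326%), 5 higher and 2 lower. The paper itself counts 18 genes for this comparison at these thresholds. With Tukey biweight group averages for the fold, 18 probe sets passed here, and whether they are the paper's 18 was not tested. The 7 are those of the limma fit on group means. Of these 7 only EGR1 has a gene symbol, and the other 6 are not named here. In each of the 5 that were higher, the array labelled SKOV-3-DD replicate 1 was the lowest of its group. For example, TC0700007031.hg.1 had log2 signals of 9.97, 11.62 and 11.35 in SKOV-3-DD and 9.74, 9.71 and 9.69 in SKOV-3-EV arrays, and TC1300007590.hg.1 had 8.47, 9.90 and 10.35 in SKOV-3-DD and 8.48, 8.49 and 8.33 in SKOV-3-EV arrays. Without that array 40 probe sets passed the study's thresholds, all 7 included, and 12 did without SKOV-3-EV replicate 1. Of the 40, 29 were higher and 11 lower, and 29 carry no symbol. In 18 of the 40 the signal of SKOV-3-DD replicate 1 lay within the range of the SKOV-3-EV arrays.

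**Figure D2:**
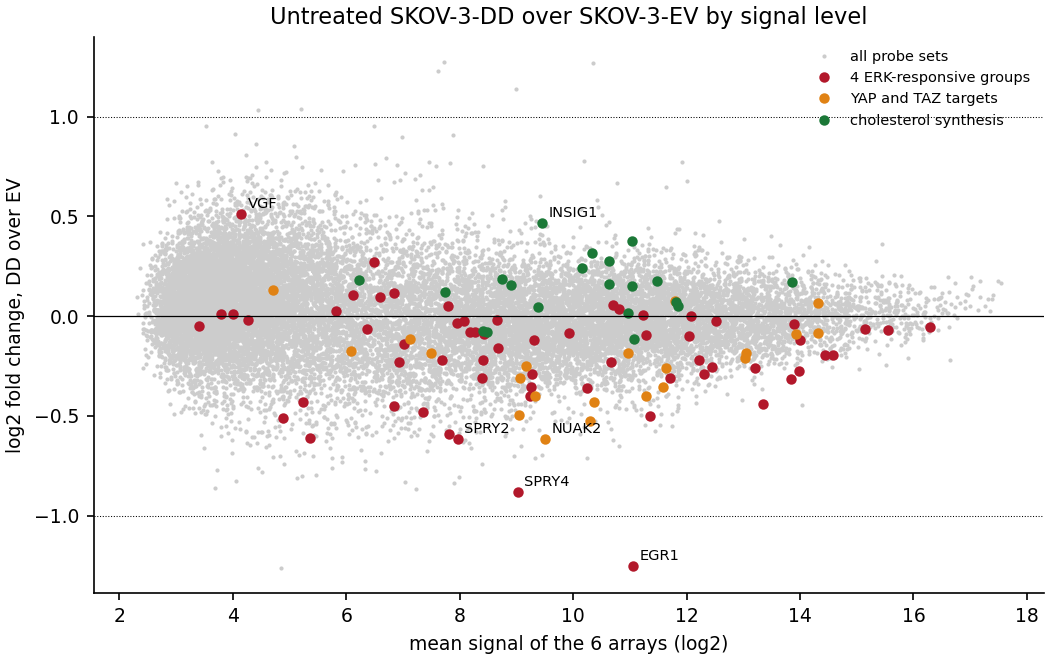
Log2 fold change of untreated SKOV-3-DD over SKOV-3-EV (vertical axis) against the mean log2 signal of the 6 arrays (horizontal axis). Grey points are all probe sets, coloured points are members of the gene groups named in the legend, and dotted lines mark a 2-fold difference. EGR1 at -1.25 is the named gene farthest below 0, and most ERK-responsive genes and YAP and TAZ targets lie under 0 while most genes of cholesterol synthesis lie above it.

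The ERK-responsive genes had lower means in SKOV-3-DD cells. They were described in 4 groups, immediate early transcription factors, MAP kinase phosphatases, Sprouty and SPRED adaptors, and ETS factors with late ERK targets, 63 measured genes in all. Of these, 50 had a lower and 13 a higher mean in SKOV-3-DD, with a median log2 fold change of -0.12 against 0.02 over all probe sets. At an unadjusted p under 0.05, 14 (22.2%) were lower and 1 (1.59%) was higher, where the shares over all probe sets were 2.30% and 3.17%. The arrays of the groups did not overlap in 16 lower members (25.4%) and 1 higher member, against 5.67% and 6.84% of all probe sets. Averaged over the 63 genes, the deviation from the SKOV-3-EV mean was -0.14, -0.27 and -0.16 in SKOV-3-DD replicates 1 to 3 and 0.024, -0.025 and 0.001 in the SKOV-3-EV arrays. Replicate 2 of SKOV-3-DD was the lowest, and no SKOV-3-DD array reached the range of SKOV-3-EV. Without SKOV-3-DD replicate 1 the median was -0.14 with 17 members lower at that p, and without replicate 2 it was -0.125 with 7. Without replicate 3 it was -0.21 with 14. None of the members passed the adjusted threshold.

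Immediate early transcription factors, which cells switch on within minutes of stimulation without new protein, had the clearest shift, with 22 of 27 means lower and a median of -0.19. At an unadjusted p under 0.05, 8 members (29.6%) were lower and 0 higher, against 2.30% and 3.17% of all probe sets. EGR1, a zinc finger factor induced through ELK and the serum response factor, had log2 signals of 10.54, 10.30 and 10.46 in SKOV-3-DD and 11.98, 11.47 and 11.62 in SKOV-3-EV arrays. All 3 SKOV-3-DD arrays lay well below all SKOV-3-EV arrays, and the log2 fold change was -1.25 (SE 0.23, unadjusted p = 4.69e-05, adjusted p = 0.503), a signal 2.39-fold higher in SKOV-3-EV. JUN, a subunit of the AP-1 factor, had 13.40, 12.88 and 13.12 in SKOV-3-DD and 13.73, 13.52 and 13.47 in SKOV-3-EV arrays. Its groups did not overlap, by a narrow margin, with a log2 fold change of -0.44 (SE 0.14, unadjusted p = 0.00613). ZFP36, which encodes an RNA-binding protein that hastens the decay of AU-rich messages, had 8.0, 7.11 and 7.42 in SKOV-3-DD and 8.01, 8.22 and 8.07 in SKOV-3-EV arrays, so that replicate 1 of SKOV-3-DD almost met the SKOV-3-EV range (log2 fold change -0.59, SE 0.20, unadjusted p = 0.00837). KLF4, a dim Krüppel-like factor here, differed by -0.61. The other 4 members past that p, named to complete the count, were NR4A3 (-0.43), FOSL1 (-0.31), ATF3 (-0.31) and KLF10 (-0.28). Against this direction FOSB and NAB2, a corepressor of EGR1, had differences of 0.27 and 0.11 that were within their spread. FOS and MYC, at -0.08 and -0.10, did not pass that p either. Without SKOV-3-DD replicate 1 the median was -0.24 with 10 members lower at that p, and without replicate 2 it was -0.10 with 3. With SKOV-3-EV replicate 1 or 2 left out, 5 members were lower at that p.

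The feedback inhibitors of the ERK pathway showed individual members well below SKOV-3-EV and others level with it. SPRY4, a Sprouty protein that dampens receptor tyrosine kinase signalling upstream of ERK1/2, had log2 signals of 8.73, 8.31 and 8.70 in SKOV-3-DD and 9.43, 9.36 and 9.60 in SKOV-3-EV arrays. Its groups were separated by more than either group's range, with a log2 fold change of -0.88 (SE 0.15, unadjusted p = 1.79e-05, adjusted p = 0.384). SPRY2 had 7.66, 7.63 and 7.69 in SKOV-3-DD and 8.24, 8.10 and 8.49 in SKOV-3-EV arrays (log2 fold change -0.62, SE 0.19, unadjusted p = 0.00538). The SKOV-3-DD arrays of SPRY2 were nearly level with each other, and none met the SKOV-3-EV range. Of the other 5 of 7 measured members of this family, SPRED3 (-0.51) was dim and within its spread, SPRED2 and SPRY1 lay at -0.08 each, and SPRY3 and SPRED1 at 0.03 and 0.05. The family's median of -0.08 was -0.19 without SKOV-3-DD replicate 1, or -0.21 with SKOV-3-EV replicate 3 left out. Among the 10 MAP kinase phosphatases 8 had a lower mean and the median was -0.16 (-0.14 without SKOV-3-DD replicate 1). At an unadjusted p under 0.05, 3 (30.0%) were lower, against 2.30% of all probe sets. DUSP4, a nuclear phosphatase of ERK1/2, had 10.11, 10.09 and 10.00 in SKOV-3-DD and 10.48, 10.35 and 10.44 in SKOV-3-EV arrays (log2 fold change -0.36, SE 0.13, unadjusted p = 0.0133). DUSP6, the cytoplasmic phosphatase specific for ERK1/2, had 9.33, 9.0 and 8.79 in SKOV-3-DD and 9.52, 9.40 and 9.39 in SKOV-3-EV arrays (log2 fold change -0.40, SE 0.16, unadjusted p = 0.0229). Neither gene's groups overlapped, although the gap for DUSP6 was narrow and its p passed 0.05 in only some of the fits without 1 array. DUSP1, the nuclear phosphatase that is itself an immediate early gene, had 11.43, 10.74 and 11.16 in SKOV-3-DD and 11.82, 11.42 and 11.60 in SKOV-3-EV arrays. Here replicate 1 of SKOV-3-DD lay just above the lowest SKOV-3-EV array (log2 fold change -0.50, SE 0.16, unadjusted p = 0.0051). DUSP8 and DUSP16 lay at 0.01 and 0.05.

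**Figure D3:**
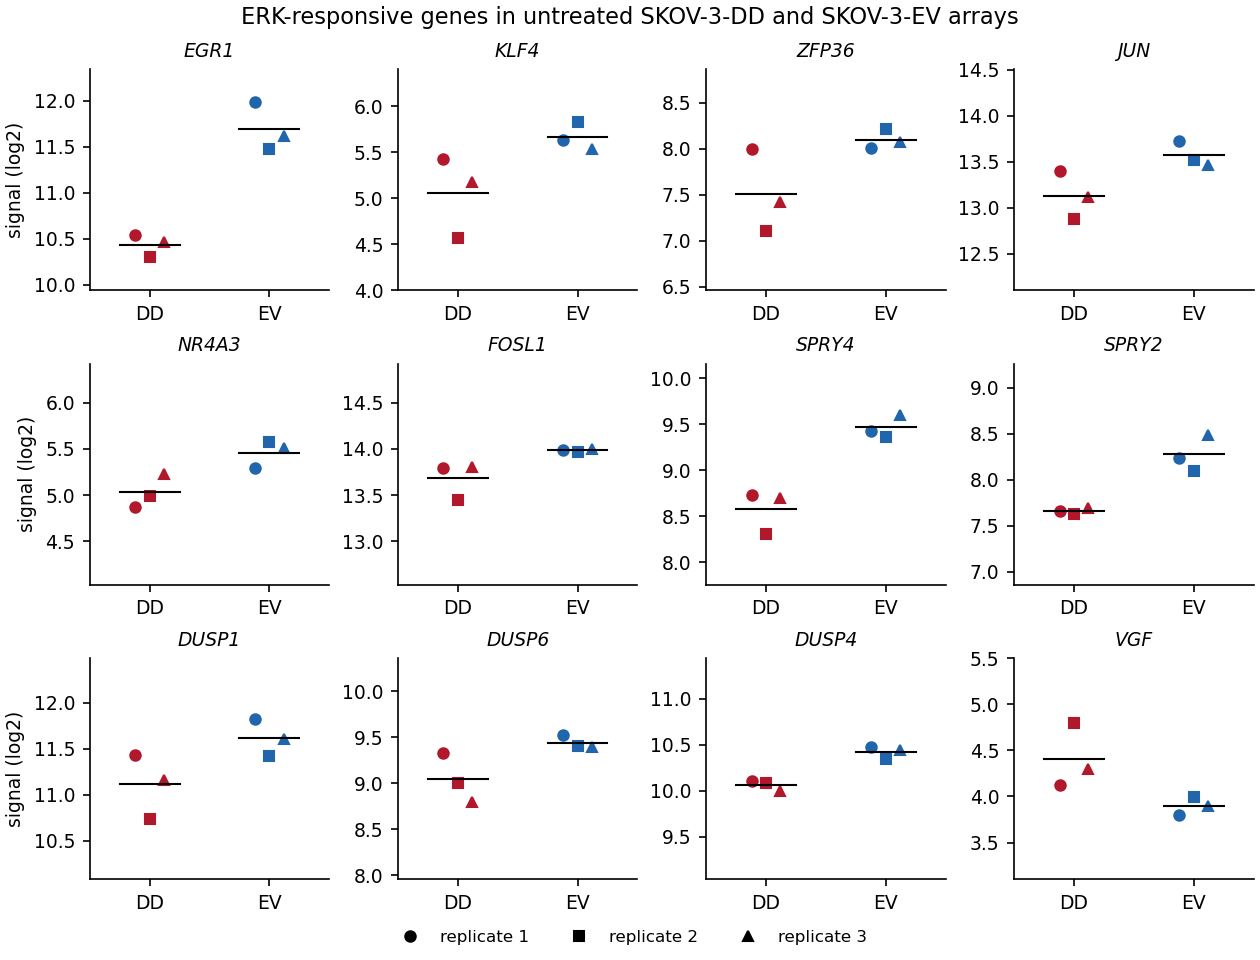
Log2 signal (vertical axis, each panel spanning 2.4 units) of 12 ERK-responsive genes in the untreated SKOV-3-DD and SKOV-3-EV arrays. Symbols are replicates and lines are group means (n = 3). In all panels but DUSP1 the groups do not overlap, and VGF is the 1 gene with a higher mean in SKOV-3-DD.

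ETS factors and late ERK targets had a smaller shift, with 15 of 19 means lower and a median of -0.12. EPHA2, an ephrin receptor, was the 1 member lower at an unadjusted p under 0.05, with a log2 fold change of -0.31 (SE 0.15, unadjusted p = 0.0497). At that p 1 member (5.26%) was lower and 1 (5.26%) higher, where the shares over all probe sets were 2.30% and 3.17%. These counts thus favoured neither direction. ETS1, PLAUR, the urokinase receptor gene, and ETS2 lay at -0.29, -0.22 and -0.26 with unadjusted p from 0.0521 to 0.0866. VGF, a neuropeptide precursor gene known as a nerve growth factor target, went the other way, with 4.12, 4.80 and 4.30 in SKOV-3-DD and 3.80, 3.99 and 3.90 in SKOV-3-EV arrays (log2 fold change 0.51, SE 0.16, unadjusted p = 0.0055). All of these VGF signals are in the range of the negative controls. The count of lower members at that p was 4 without SKOV-3-DD replicate 3, 0 when SKOV-3-DD replicate 2 or SKOV-3-EV replicate 3 was left out, 0 after centring and 2 after quantile normalization. This group's median was -0.06 without SKOV-3-DD replicate 1. Leaving out SKOV-3-EV replicate 2 gave -0.18. In all arrays the mean deviation of its members was -0.20, -0.08 and -0.01 in SKOV-3-DD replicates 1 to 3.

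Transcripts of the ERK cascade itself differed little. Of 21 measured members, from RAS and RAF to the RSK kinases, the ELK factors and PEA-15 partners, 17 had a lower mean, the median was -0.09, and 0 were lower or higher at an unadjusted p under 0.05. When SKOV-3-DD replicate 1 was left out the median was -0.09, with 2 lower and 1 higher at that p. MAPK3, which encodes ERK1, lay at 0.04 (SE 0.13), MAP2K1 at -0.14 (SE 0.11), ELK1 at -0.09 (SE 0.13) and FADD, the death receptor adaptor that binds PEA-15, at -0.31 (SE 0.19). PLD1, a phospholipase whose stability PEA-15 enhances, lay at 0.38 (SE 0.22). In this group replicate 2 of SKOV-3-DD averaged -0.135 from the SKOV-3-EV mean, against -0.02 and -0.03 in replicates 1 and 3.

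**Figure D4:**
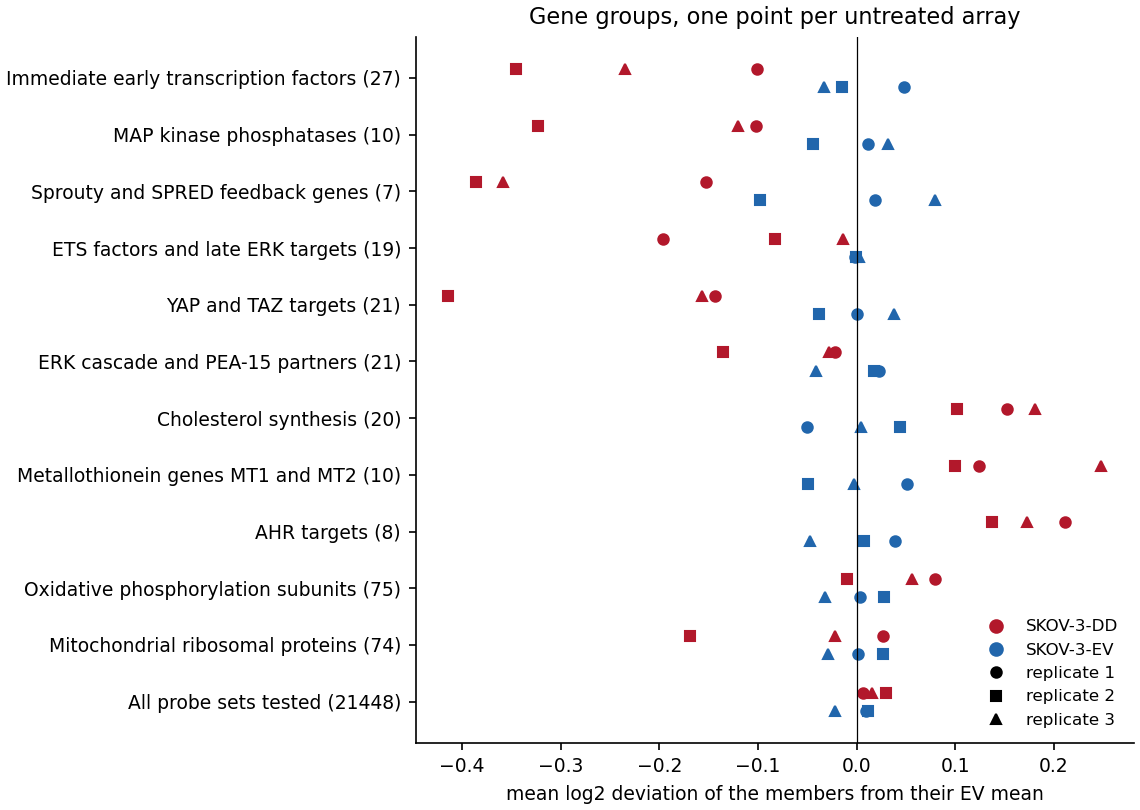
Mean log2 deviation of the members of 12 gene groups from their SKOV-3-EV mean (horizontal axis), with 1 point per untreated array and the number of measured members in parentheses. The SKOV-3-DD points of the 3 upper groups lie at or below -0.10, those of cholesterol synthesis, metallothioneins and AHR targets at or above 0.10, and replicate 2 of SKOV-3-DD is the lowest point in the 3 upper groups and in the YAP and TAZ targets.

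Targets of the coactivators YAP and TAZ, the effectors of the Hippo pathway, also had lower means, in 18 of 21 genes with a median log2 fold change of -0.21. At an unadjusted p under 0.05, 4 (19.0%) were lower and 0 higher, and the groups did not overlap in 7 lower genes (33.3%), where the shares of lower ones over all probe sets were 2.30% and 5.67%. NUAK2, a kinase of the AMPK family, had 9.22, 9.24 and 9.14 in SKOV-3-DD and 9.92, 9.66 and 9.87 in SKOV-3-EV arrays (log2 fold change -0.62, SE 0.23, unadjusted p = 0.0153). Its SKOV-3-DD arrays were close together, under all those of SKOV-3-EV. LATS2, a Hippo kinase that restrains YAP and is induced by it, had 9.07, 8.71 and 8.60 in SKOV-3-DD and 9.11, 9.19 and 9.58 in SKOV-3-EV arrays (log2 fold change -0.50, SE 0.19, unadjusted p = 0.019), separated by a narrow margin. DLC1 and GADD45B, a stress-induced gene, lay at -0.43 and -0.36. The classical targets CCN1, CCN2 and ANKRD1 lay at -0.40, -0.53 and -0.40 and did not pass that p (0.0674, 0.126 and 0.0839). Without SKOV-3-DD replicate 1 the median was -0.31 with 3 members lower at that p, and without replicate 2 it was -0.18 with 2. Without SKOV-3-EV replicate 3, 1 member was lower at that p, with a median of -0.25. The average deviation was -0.41 in SKOV-3-DD replicate 2, against -0.14 and -0.16 in replicates 1 and 3.

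Chemokines and cytokines did not share a direction. CXCL1, a neutrophil chemokine, had 11.19, 10.97 and 11.32 in SKOV-3-DD and 12.04, 11.70 and 11.47 in SKOV-3-EV arrays (log2 fold change -0.57, SE 0.18, unadjusted p = 0.00475). INHBA, the activin A subunit gene, had 10.63, 10.14 and 10.41 in SKOV-3-DD and 11.16, 10.84 and 10.87 in SKOV-3-EV arrays (log2 fold change -0.57, SE 0.18, unadjusted p = 0.00521). Neither overlapped between the groups. CXCL9, a chemokine in the range of the negative controls, had 3.35, 3.36 and 3.04 in SKOV-3-DD and 2.89, 2.47 and 2.66 in SKOV-3-EV arrays and was thus on the other side (log2 fold change 0.58, SE 0.20, unadjusted p = 0.0111). TNFAIP3, which encodes the NF-κB inhibitor A20, lay at -0.42 and PTGS2, the dim cyclooxygenase 2 gene, at -0.54. As lists, the IL6 and IL1 cytokines with NF-κB feedback genes had a median of -0.07 with 15 of 23 means lower. The CXC chemokines, listed with CCL20, CCL2, CCL5 and CX3CL1, had a median of 0.06 with 11 of 16 means higher. These medians, without SKOV-3-DD replicate 1, were -0.09 and 0.06. ERBB3, an EGF receptor family member, and MMP14, a membrane matrix metalloproteinase, differed by -0.83 and -0.86, but their signals, from 3.08 to 3.68 in SKOV-3-DD and from 3.82 to 4.76 in SKOV-3-EV, were in the range of negative controls.

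Genes of cholesterol synthesis had higher means in SKOV-3-DD, in 17 of 20 with a median log2 fold change of 0.16. The groups did not overlap in 8 higher genes (40.0%) and in 0 lower ones, against 6.84% of all probe sets higher, while only 1 member was higher at an unadjusted p under 0.05. This was INSIG1, an endoplasmic reticulum protein that retains the SREBP activator of the pathway, with 9.50, 9.77 and 9.80 in SKOV-3-DD and 9.26, 9.17 and 9.24 in SKOV-3-EV arrays (log2 fold change 0.47, SE 0.14, unadjusted p = 0.00395). STARD4, a sterol carrier gene, had 10.27, 10.72 and 10.48 in SKOV-3-DD and 10.17, 10.16 and 10.19 in SKOV-3-EV arrays (log2 fold change 0.32, SE 0.15, unadjusted p = 0.0535). The enzymes SC5D and LSS lay at 0.28 and 0.24. HMGCS1, the synthase ahead of the rate-limiting reductase, lay at 0.02, and NSDHL and EBP were on the other side at -0.11 and -0.08. All 3 SKOV-3-DD arrays contributed, with mean deviations of 0.15, 0.10 and 0.18, against -0.05, 0.04 and 0.01 in SKOV-3-EV. Without SKOV-3-DD replicate 1 the median was 0.12.

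Metallothioneins, the small metal-binding proteins that buffer zinc and copper, also had higher means in SKOV-3-DD, by small amounts. All 10 measured MT1 and MT2 genes were above SKOV-3-EV on average, with a median of 0.15, no overlap in 5 of them (6.84% of all probe sets higher) and 0 past an unadjusted p of 0.05. MT1M, second to MT1HL1 by p, had 12.29, 12.25 and 12.40 in SKOV-3-DD and 12.13, 12.06 and 12.08 in SKOV-3-EV arrays (log2 fold change 0.22, SE 0.12, unadjusted p = 0.0787). MT2A, the most abundant, had 17.38, 17.25 and 17.24 in SKOV-3-DD and 17.30, 17.31 and 17.11 in SKOV-3-EV arrays, which overlapped (log2 fold change 0.05). These genes are nearly identical copies, and probes may share their transcripts, so the 10 are not 10 separate observations. Without SKOV-3-DD replicate 1 their median was 0.18, and without replicate 3 it was 0.10.

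Targets of the aryl hydrocarbon receptor held a pair of higher genes. CYP1B1, an oxygenase for steroids and aromatic compounds, had 10.91, 10.70 and 10.53 in SKOV-3-DD and 10.12, 10.21 and 10.17 in SKOV-3-EV arrays (log2 fold change 0.55, SE 0.13, unadjusted p = 0.000755, adjusted p = 0.734). Its groups were well separated. ALDH3A1, an aldehyde dehydrogenase gene that is dim here, lay at 0.61 (SE 0.19, unadjusted p = 0.00501). NQO1 and CYP1A1 lay at 0.16 and 0.33 within their spread, and TIPARP, also a target, lay at -0.29. The list also holds the receptor gene AHR itself and its partner ARNT, at 0.14 and 0.04. Over the 8 measured members the median was 0.15, and without SKOV-3-DD replicate 1 it was 0.13.

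Nuclear-encoded mitochondrial genes were split. Of 75 subunits of oxidative phosphorylation 46 had a higher mean with a median of 0.06, and the groups did not overlap in 13 higher (17.3%) and 2 lower genes (2.67%), against 6.84% and 5.67% of all probe sets. At an unadjusted p under 0.05, 3 (4.0%) were higher, near the 3.17% of all probe sets, among them NDUFA9 of complex I at 0.36 (SE 0.14, unadjusted p = 0.0229) and COX7B of complex IV at 0.41 (SE 0.16, unadjusted p = 0.0224). Of 74 mitochondrial ribosomal proteins 50 had a lower mean and the median was -0.09. Only 2 of the 74 (2.7%) were lower at an unadjusted p under 0.05, close to the 2.30% of all probe sets, namely MRPS11 at -0.40 (SE 0.13, unadjusted p = 0.00755) and MRPL10 at -0.35 (SE 0.13, unadjusted p = 0.0149). The median of the first set was 0.01 without SKOV-3-DD replicate 1, and it was 0.02 when SKOV-3-EV replicate 3 was left out. That of the second was -0.12 without SKOV-3-DD replicate 1 and -0.01 without replicate 2, whose mean deviation was -0.17 against 0.03 and -0.02 in replicates 1 and 3. Large sets of housekeeping and stress genes stood close to all probe sets: the medians were 0.00 for 66 splicing factors, 44 proteasome subunits, 30 G2/M genes and 27 NRF2 targets, 0.01 for 31 genes of G1/S and replication, 0.02 for 55 cytosolic ribosomal proteins and 0.03 for 25 p53 targets and CDK inhibitors. Within them a few genes passed an unadjusted p of 0.05, among them HMOX1, the haem oxygenase among the NRF2 targets, at -0.53 and PSME1, a proteasome activator subunit, at 0.47. Apoptosis and TRAIL pathway genes, with a median of -0.04 over 29 members, held 0 members past that p in either direction.

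Of the 17709 probe sets with a symbol, 334 had an unadjusted p under 0.05, no overlap between the arrays and a sufficient signal. For the last, the mean of the higher group had to exceed the overall median of 6.51. Of the 334, 211 were lower and 123 higher in SKOV-3-DD. Among the 10724 probe sets with a mean signal at or above the median, 358 were lower and 235 higher at that p. Beside EGR1 and SPRY4 the lowest log2 fold changes were those of FAM3A (-0.83), ELFN2 (-0.81), ZNF692 (-0.77), STX1A, a syntaxin of synaptic vesicle fusion (-0.74), MAP3K14, the kinase of noncanonical NF-κB signalling (-0.71), and KDM6B, a histone H3 lysine 27 demethylase that is itself signal-induced (-0.70). Then followed CTSE, LRRC17, NR1D1, CRAMP1, CDC42EP2, BCL7B and DYNAP, between -0.67 and -0.62. FAM3A had 7.02, 6.63 and 6.22 in SKOV-3-DD and 7.36, 7.50 and 7.49 in SKOV-3-EV arrays (SE 0.18, unadjusted p = 0.000245). KDM6B had 8.65, 8.70 and 8.50 in SKOV-3-DD and 9.32, 9.24 and 9.39 in SKOV-3-EV arrays (SE 0.17, unadjusted p = 0.000814). The SKOV-3-DD arrays of KDM6B were close together, whereas those of FAM3A were spread out.

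The highest log2 fold changes were those of SLC44A2, a choline transporter gene (0.77), CFB, complement factor B (0.77), PCDHB7, a protocadherin (0.75), KRTAP2-1 (0.72), FGF18, a fibroblast growth factor (0.71), HMHB1 (0.68), the long noncoding RNA HCP5 (0.67), IMPA2, an inositol monophosphatase (0.67), ACP1, a low molecular weight phosphatase (0.65), and MAL, a membrane raft protein (0.65). They were followed by ADORA2A, an adenosine receptor, SATB1, a chromatin organiser, CYP1B1, CLDN12 and TM4SF19-AS1, between 0.63 and 0.53. SLC44A2 had 7.65, 7.86 and 8.01 in SKOV-3-DD and 7.04, 7.40 and 6.76 in SKOV-3-EV arrays (SE 0.22, unadjusted p = 0.00232). CFB had 8.43, 8.31 and 7.87 in SKOV-3-DD and 7.50, 7.72 and 7.09 in SKOV-3-EV arrays (SE 0.19, unadjusted p = 0.000693). In both genes the SKOV-3-EV arrays spread more widely than the gap between the groups. ACP1 differed in another way, with 11.49, 12.23 and 12.14 in SKOV-3-DD and 11.42, 11.34 and 11.17 in SKOV-3-EV arrays, so that replicate 1 of SKOV-3-DD stood beside SKOV-3-EV.

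The genes named by the study were chosen on arrays of this series and are no independent evidence. They came from its comparisons of untreated SKOV-3-AA with SKOV-3-EV or SKOV-3-DD, not from the comparison described here. Of the 13 listed, 9 were found by symbol. Of those not yet described, NAV3 lay at -0.54 (SE 0.21, unadjusted p = 0.0176) with no overlap and GTSF1L, which is dim, at 0.60 (SE 0.28, unadjusted p = 0.0456). GTSF1L had 4.46, 5.72 and 5.56 in SKOV-3-DD and 4.79, 4.60 and 4.56 in SKOV-3-EV arrays, with SKOV-3-DD replicate 1 below all SKOV-3-EV arrays. PRKG1, also dim, and RBM26 lay at -0.04 and 0.07.

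Untreated SKOV-3-AA cells, which carried the mutant that cannot be phosphorylated, were set against the same 3 SKOV-3-EV arrays, so both differences share those controls. The 63 ERK-responsive genes had a median log2 fold change of -0.12 in SKOV-3-DD and -0.20 in SKOV-3-AA over SKOV-3-EV, with 14 and 13 members lower at an unadjusted p under 0.05 (2.30% and 1.45% of all probe sets), and with 0 members higher in SKOV-3-AA at that p (1.64% of all probe sets). Tested directly, SKOV-3-DD differed from SKOV-3-AA at that p in 1 lower and 2 higher of the 63 genes (1.69% and 2.30% of all probe sets), and 0 probe sets passed an adjusted p of 0.05, while 363 lower and 493 higher ones passed the unadjusted threshold. EGR1 in SKOV-3-AA was 11.03, 10.54 and 9.89, and SKOV-3-DD minus SKOV-3-AA was -0.05 (SE 0.23). SPRY4 was the lower member, with 8.90, 8.95 and 9.09 in SKOV-3-AA, all above the SKOV-3-DD and below the SKOV-3-EV arrays (SKOV-3-DD minus SKOV-3-AA -0.40, SE 0.15, unadjusted p = 0.0167). FAM3A, at -0.82 (unadjusted p = 0.000295), and ACP1, at 0.60 (unadjusted p = 0.0029), were among the genes past the unadjusted threshold between the mutants. SPRY4, FAM3A and ACP1 were named for their difference from SKOV-3-EV, and the same SKOV-3-DD arrays enter this contrast. Their values here are thus a description only. YAP and TAZ targets (median -0.21 in SKOV-3-DD and -0.18 in SKOV-3-AA) and cholesterol synthesis (0.16 and 0.12) lay side by side.

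Under cisplatin the comparison was repeated on separate arrays. The same 63 genes then had a median log2 fold change of 0.07 between SKOV-3-DD and SKOV-3-EV, with 25 lower means and 1 lower and 3 higher at an unadjusted p under 0.05 (4.29% and 3.49% of all probe sets). EGR1 was 13.57, 13.09 and 13.49 in SKOV-3-DD and 13.82, 13.49 and 13.71 in SKOV-3-EV arrays, a difference of -0.29 with groups that overlapped. SPRY4 was 11.42, 11.30 and 11.06 in SKOV-3-DD and 11.26, 10.89 and 11.09 in SKOV-3-EV arrays, a difference of 0.18. The difference of differences, cisplatin minus untreated, was 0.96 for EGR1 (SE 0.33, unadjusted p = 0.00961) and 1.07 for SPRY4 (SE 0.21, unadjusted p = 0.000105), 0.61 for DUSP1 (SE 0.22, unadjusted p = 0.0132) and 0.53 for DUSP4 (SE 0.18, unadjusted p = 0.00949). Of the 63 genes 10 had a positive and 2 a negative difference of this kind at that p, where the shares over all probe sets were 3.20% and 4.39%, and none of the 21448 passed an adjusted p of 0.05 (687 positive and 941 negative ones passed the unadjusted threshold). The untreated difference enters this contrast with its sign reversed, so genes lower without cisplatin tend towards a positive value. The 63 genes were listed with earlier results of these data known, and the genes named here were chosen on the untreated side. The count of 10 and 2 and the values of the named genes are thus a description only. The median of YAP and TAZ targets under cisplatin was 0.03, that of cholesterol synthesis -0.04 and that of the MT1 and MT2 genes -0.17, with all 10 of the last lower in SKOV-3-DD. CYP1B1 (0.33), MAL (0.69) and SLC44A2 (0.64) again had a higher mean in SKOV-3-DD, each at an unadjusted p from 0.00389 to 0.023. Over all probe sets 3.49% were higher at an unadjusted p under 0.05. FAM3A and ELFN2, among the lowest without cisplatin, lay at -0.08 and -0.13 (unadjusted p = 0.651 and 0.544). These genes were singled out from the named ones, and how many of the others repeated was not counted.

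**Figure D5:**
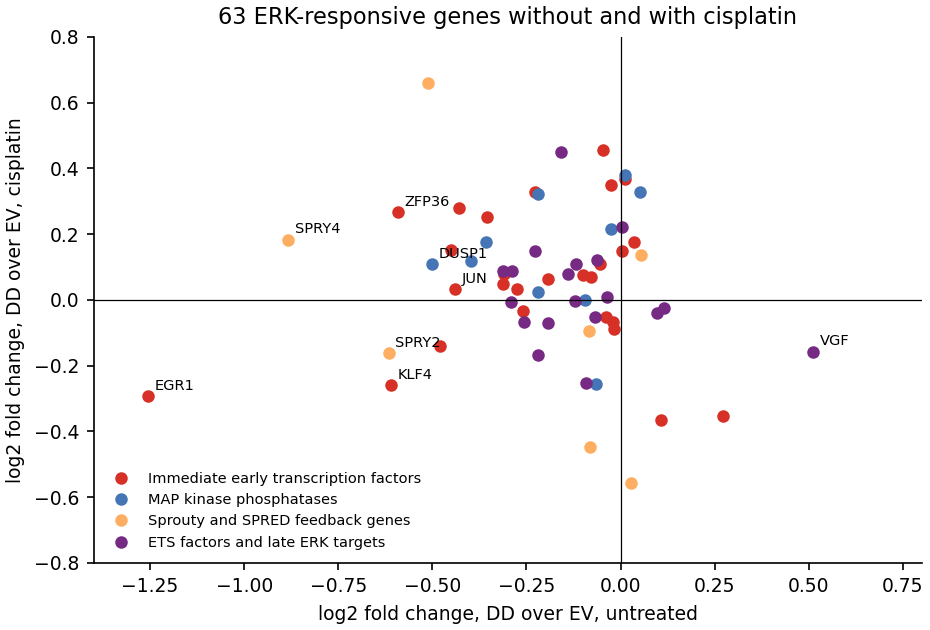
Log2 fold change of SKOV-3-DD over SKOV-3-EV for 63 ERK-responsive genes, untreated (horizontal axis) and under cisplatin (vertical axis), with 1 point per gene coloured by group. Most points lie left of 0, with a median of -0.12 untreated, and scatter about 0 on the vertical axis, with a median of 0.07.

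Dim transcripts formed a separate pattern. When probe sets were ordered by mean signal into 5 equal bins, the median log2 fold change was 0.06, 0.08, 0.00, -0.04 and -0.01 from the dimmest to the brightest. In the dimmest bin 174 of 4290 probe sets were higher and 54 lower at an unadjusted p under 0.05. In the second dimmest, 230 of 4289 were higher and 83 lower, where the shares over all probe sets were 3.17% and 2.30%. The median deviation of these bins from the SKOV-3-EV mean was -0.02 and -0.02 in SKOV-3-DD replicate 1, 0.11 and 0.16 in replicate 2 and 0.05 and 0.08 in replicate 3, and the 95th percentile of the negative controls was 6.30, 6.95 and 6.89 in the same 3 arrays. Families that are silent in most epithelial cells had medians above 0 in the values as deposited, among them keratin-associated proteins (86 genes, median 0.12), olfactory receptors (349 genes, 0.06) and the endothelial markers (8 genes, 0.18, with CLDN5 and VWF at 0.65 and 0.61). After quantile normalization the first 2 medians were 0.06 and 0.00, with 174 olfactory receptors higher and 175 lower, and without SKOV-3-DD replicate 2 they were 0.03 and 0.01. The endothelial median was 0.12 after quantile normalization and 0.18 without SKOV-3-DD replicate 2. The endothelial defining markers PECAM1, KDR and CDH5 had signals from 2.76 to 4.59 in SKOV-3-DD and from 2.65 to 4.28 in SKOV-3-EV. Summed over the endothelial list, the log2 signal was 7.39 to 7.97 in SKOV-3-DD and 7.22 to 7.25 in SKOV-3-EV. Of its 8 genes 3 (37.5%) were higher at an unadjusted p under 0.05, against 3.17% of all probe sets. For the fibroblast list the summed signal was 12.60 to 13.06 in SKOV-3-DD and 12.30 to 12.51 in SKOV-3-EV, with 1 of 9 genes (11.1%) higher at that p. The median signal of its genes was 4.61, so this sum rests on brighter members and not on dim transcripts. For the leukocyte list, with a median signal of 4.45, the sum likewise rests on brighter members. It was 12.91 to 13.07 in SKOV-3-DD and 12.63 to 13.04 in SKOV-3-EV, with 0 of 10 genes higher at that p. The part of these levels in the higher counts was not tested. The gene groups with lower means described above are bright, with median signals of 10.03 for YAP and TAZ targets and 10.14 for the ERK-responsive genes, and over the bright bins the medians were -0.04 and -0.01.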

How the data were processed

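Expression was measured on Clariom S human arrays, 1 per sample. The authors summarised the scans per gene by signal space transformation and robust multi-chip average (SST-RMA) in Transcriptome Analysis Console and deposited log2 values normalized between arrays. No genome build or scan depth is given in the sources used here, and 3 arrays per group limit the precision (median SE of a log2 fold change 0.178). Of 24351 features 2903 control features were left out and 21448 probe sets tested, of which 17709 have 1 gene symbol in the platform annotation and 3739 have none. Groups were taken from the labels. Means of the 6 groups were fitted in limma 3.58.1 (R 4.3.3) over all 18 arrays, with 12 residual and 5.47 prior degrees of freedom, and contrasts were SKOV-3-DD minus SKOV-3-EV untreated, SKOV-3-DD minus SKOV-3-AA, SKOV-3-DD minus SKOV-3-EV under cisplatin and the difference of the last and the first. P-values were adjusted by Benjamini-Hochberg over all probe sets. The fit was tested on simulated data. The study's thresholds were an unadjusted p under 0.05 and a 2-fold change.

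Named genes were those past the study's thresholds and the 15 highest and 15 lowest log2 fold changes. The latter needed an unadjusted p under 0.05, no overlap and a mean signal above the median in the higher group. For each list, up to 4 members that followed its median and 2 that opposed it were named, by p. PEA15 and its ERK cascade partners were named as well, as were genes the study names. Other members were named after their values were seen, and the members and gene lists were chosen with earlier results of these data known. Lists are described by counts and medians and were not tested as sets. Alternatives were array centring, quantile normalization, filters on dim probe sets, limma's trend and robust options, fits on fewer arrays, a replicate block, Tukey averages and leaving out each array. Promoters of 250 bases before the start came from RefSeq (GRCh38.p14).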

Additional observations from a re-analysis of the deposited data

How the results depend on the processing

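No named gene with an unadjusted p under 0.05, in the fit over all arrays or in the alternative itself, changed sign under the alternatives run, but members near 0 did, among them DUSP8, DUSP16, SPRY3, SPRED1 and SPRED2. The count of probe sets past the study's thresholds, 7, was 18 with Tukey biweight averages and 4 without probe sets under the median signal, and ranged from 6 to 40 with 1 array left out (40 without SKOV-3-DD replicate 1, 12 when SKOV-3-EV replicate 1 was left out). With limma's trend and robust options 1 probe set, EGR1, had an adjusted p under 0.05 (0.0465), where the other alternatives gave 0. The 680 higher probe sets at an unadjusted p under 0.05 became 1065 when only the 9 untreated arrays were fitted and 235 without probe sets under the median signal, and ranged from 398 to 1172 with 1 array left out (398 without SKOV-3-DD replicate 2). The 493 lower ones became 851 with the 9 untreated arrays and ranged from 338 to 819. The share of higher ones was 39.6% without probe sets under the median signal and 51.5% without those under the 25th percentile. The median of all probe sets was 0.02, and 0.05 after centring. With 1 array left out, the median of the immediate early factors ranged from -0.24 to -0.10, that of the Sprouty and SPRED genes from -0.21 to -0.10 and that of the 4 ERK-responsive groups from -0.207 to -0.125 (-0.193 without probe sets under the median signal). The cause of these changes was not tested. EGR1, SPRY4, SPRY2, DUSP1, DUSP4, JUN, INSIG1, CYP1B1 and NUAK2 kept an unadjusted p under 0.05 under every alternative that gave them a value, whereas DUSP6 did not without SKOV-3-DD replicate 2 or 3 or SKOV-3-EV replicate 1, and ZFP36 and VGF did not without SKOV-3-DD replicate 2. The labels give same-numbered arrays only that number in common. With the replicate block 716 probe sets were higher and 524 lower, and 7 passed the study's thresholds. Deviations of each array from its own group mean were correlated between SKOV-3-DD and SKOV-3-EV arrays. The correlations were 0.107, 0.109 and 0.0808 for same-numbered arrays and from -0.115 to 0.0151 for differently numbered ones. Whether same-numbered arrays form pairs was not tested.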

Other observations

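Genes grouped by the stem of their symbol gave 244 families of at least 10 genes, of which 130 had a median signal above that of all probe sets. Among these, 50 had a higher and 79 a lower median in SKOV-3-DD. The NBPF genes, near-identical copies whose probes may share transcripts, had a lower mean in all 12 members (median -0.20 on the log2 scale), and deviated by -0.14, -0.30 and -0.21 in SKOV-3-DD replicates 1 to 3. The TAF genes, which include subunits of the general transcription factor TFIID, had 17 of 22 means lower with a median of -0.12 and 0 at an unadjusted p under 0.05. On the other side, the aldehyde dehydrogenases had 14 of 19 means higher with a median of 0.18, 3 of them at an unadjusted p under 0.05 (3.17% of all probe sets), and the tetraspanins had 17 of 22 higher with a median of 0.14. These families were picked after their values were seen and were not tested.

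Genes of platinum transport had 10 of 15 means lower with a median of -0.20, and 0 passed an unadjusted p of 0.05 in either direction. Without SKOV-3-DD replicate 2 that median was -0.05. Genes of glucuronidation had a median of 0.20 over 9 members, and -0.01 without the same array.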
